A study of Mus musculus with 9 samples.

Results

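The yolk sac of Rnh1-/- mouse embryos (KO) was compared with that of Rnh1+/- embryos (HET), which asks what changes when the last functional copy of Rnh1 is lost. The comparison rested on 3 KO and 3 HET arrays of a series of 9, whose other 3 arrays came from Rnh1+/+ embryos (WT). All embryos were at embryonic day 9.5, were untreated and had a mixed background of the SV 129 and C57BL/6 strains, and the labels state that yolk sacs were taken free of maternal tissue. RNA was hybridised to Affymetrix whole-transcript gene arrays, 1 array per sample, and values are log2 signals, so a difference of 1 is a 2-fold change. Of 28350 probe sets, 21780 named 1 gene symbol. They covered 19933 genes, and 13207 of these were bright enough to be tested.

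Rnh1 encodes the ribonuclease inhibitor, a leucine-rich repeat protein of the cytosol that binds ribonucleases of the pancreatic (ribonuclease A) family very tightly and blocks them. At this age the yolk sac feeds the embryo and makes its first blood. Its outer layer, the visceral endoderm, takes up nutrients from the uterus, secretes serum proteins and apolipoproteins and performs much of the metabolism later done by the liver. Its inner layer, the extraembryonic mesoderm, carries blood islands with primitive red cells and a vascular network lined by endothelium.

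The 9 array medians lay between 7.07 and 7.20, and precision was limited by the number of arrays. Correlations across probe sets were 0.992 to 0.996 among KO arrays, 0.996 to 0.998 among HET arrays and 0.989 to 0.994 between the genotypes. On the second principal component, which held 18.7% of the variance, KO 1 (-20.3) and WT 2 (-11.6) lay at one end and HET 3 (12.7) at the other. The labels do not say that replicates came from separate embryos or litters, so the p-values measure only the spread between these samples, which may be technical. Of yolk sac markers, the visceral endoderm gene Afp averaged 13.04 in HET and the embryonic globin Hbb-y 13.34, near the top of the array scale. Against the label's statement on maternal tissue, the decidual gene Prl8a2 read 8.90 to 11.34 on the WT and KO arrays and 9.75 on HET 2, with 6.50 and 7.18 on HET 1 and HET 3. In whole tissue, fewer cells of a type and less RNA per cell cannot be told apart.

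The labels do not give the sex of the tissue, and sex-linked transcripts were not balanced between the genotypes. Xist, the RNA that coats the inactive X chromosome, stood at 5.15, 10.56 and 5.76 on the HET arrays and at 11.05, 11.06 and 11.67 on the KO arrays. Every KO array was thus high, as was HET 2, while HET 1 and HET 3 were low. Eif2s3y, a gene of the Y chromosome, read 8.68, 7.87 and 8.48 on the HET arrays against 7.62, 7.27 and 4.41 in KO. HET 2, KO 1 and KO 2 thus had high Xist together with Eif2s3y above the median of the array, so the 2 transcripts did not assign these arrays to 1 sex. Xist was also low on the same HET arrays as the decidual gene Prl8a2. With the Xist level of each array as a covariate, 843 genes passed in place of 2875. Of these, 836 were among the 2875, and all 2875 kept their direction. The median size of those 2875 differences was 0.398 with the covariate against 0.392 without, and their median standard error was 0.112 against 0.0822. Of 410 tested genes on the X chromosome 18 rose and 66 fell (20.5% called, against 21.8% of all genes). Rises were scarcer there than the 8.17% of all genes, and falls somewhat more common than the 13.6% of all genes. Sex, mixed samples and maternal tissue cannot be told apart as sources of the Xist level. Beyond these values and the covariate fits, their part in the results was not tested.

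Rnh1 itself (Entrez gene 107702, probe set 10569057) was tightly grouped in HET, at 9.75, 9.75 and 9.77, and far lower in KO, at 6.28, 6.78 and 6.87. In WT it stood at 10.39, 10.42 and 10.32. The 3 genotypes did not overlap, and HET lay nearer to WT than to KO. From HET to KO it fell by 3.11 (SE 0.13, limma adjusted p = 2.37e-05), at least 8.63-fold, a lower bound because KO 1 was below the level at which genes were counted as bright enough to test. An exact permutation test (two-sided) gave p = 0.1, its smallest possible value with 3 arrays a side. HET held 64.9% of the WT signal (log2 -0.62, adjusted p = 0.939). By rank within its array, the probe set lay at percentiles 37.7 to 44.8 on KO arrays and 81.7 to 82.9 on HET arrays. No source used here says which part of the gene was deleted or where the probe set lies relative to it.

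**Figure D1:**
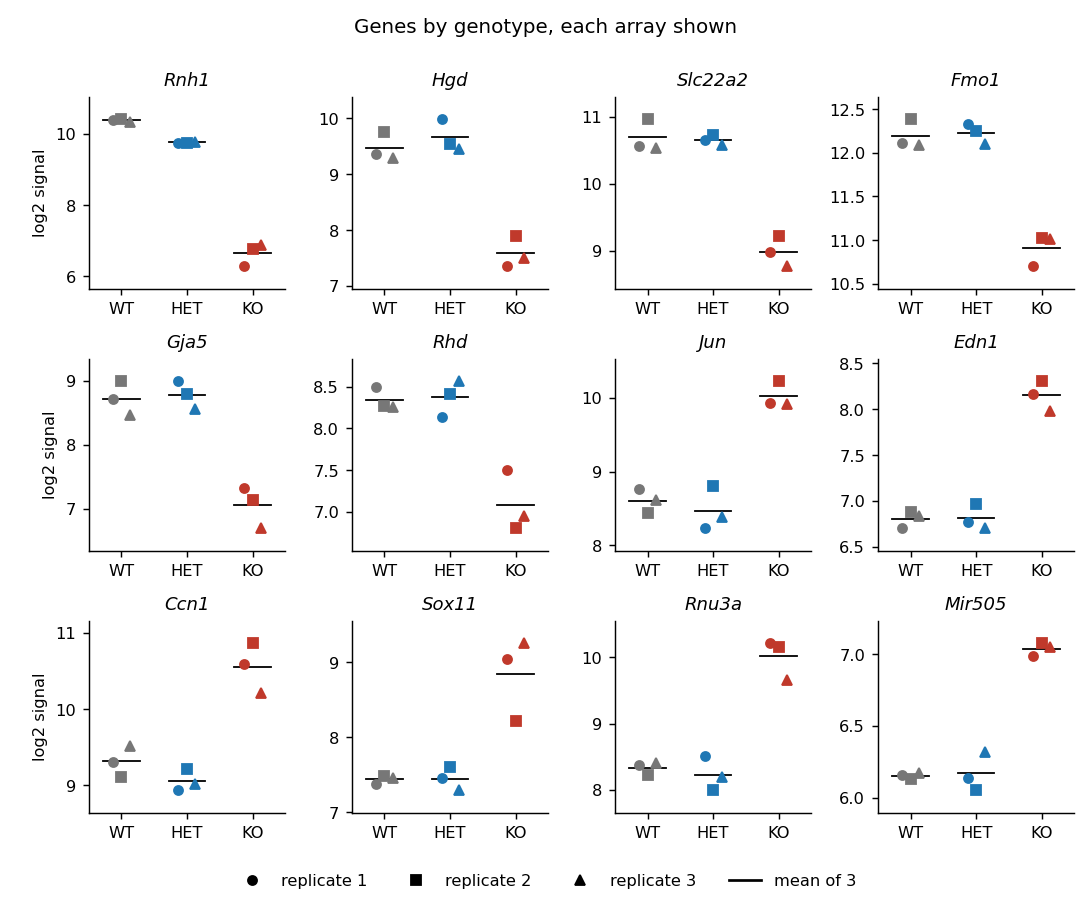
Log2 signal of 12 genes on each array, with symbols for replicates 1 to 3 and a line at the mean of each genotype (WT grey, HET blue, KO red; each panel has its own vertical scale). In every panel the 3 KO arrays lie apart from the 3 HET arrays, while for Rnh1 alone among them the HET arrays all lie well below the WT arrays.

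Of the 13207 genes tested, 2875 (21.8%) passed limma's test of KO against HET (adjusted p under 0.05). In KO 1079 were higher (8.17%) and 1796 lower (13.6%). Most differences were modest, with a median size of 0.392 on the log2 scale. At least 1.5-fold changes numbered 159 up and 408 down, and at least 2-fold changes 24 up and 74 down. The 3 KO arrays lay beyond the 3 HET arrays in 2860 of the called genes, as they did in 37.1% of all genes tested. With any 1 of the 9 arrays left out, 1297 genes passed every time, 414 higher and 883 lower. The count was 1508 without HET 1 (567 higher, 941 lower) and 1557 without HET 2 (538 higher, 1019 lower). Without HET 3 there were 649 higher and 1617 lower, and without KO 2 896 and 1347. Centring each array on its median gave 698 higher and 1720 lower, so 71.1% of calls were falls against 62.5%, and quantile normalization gave 56.5%. The KO array nearest to HET was KO 1 in 994 called genes, KO 2 in 1054 and KO 3 in 827. Among lower genes KO 1 was nearest in 752 and KO 2 in 596, and among higher genes KO 1 in 242 and KO 2 in 458. Gene lists are described below by how many of their tested members rose or fell, to be read against the 8.17% and 13.6% of all genes. For most lists the median difference is also given, to be read against -0.014 for all genes. The lists were chosen with earlier results of these data known, so their shares are descriptions and no independent evidence.

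**Figure D2:**
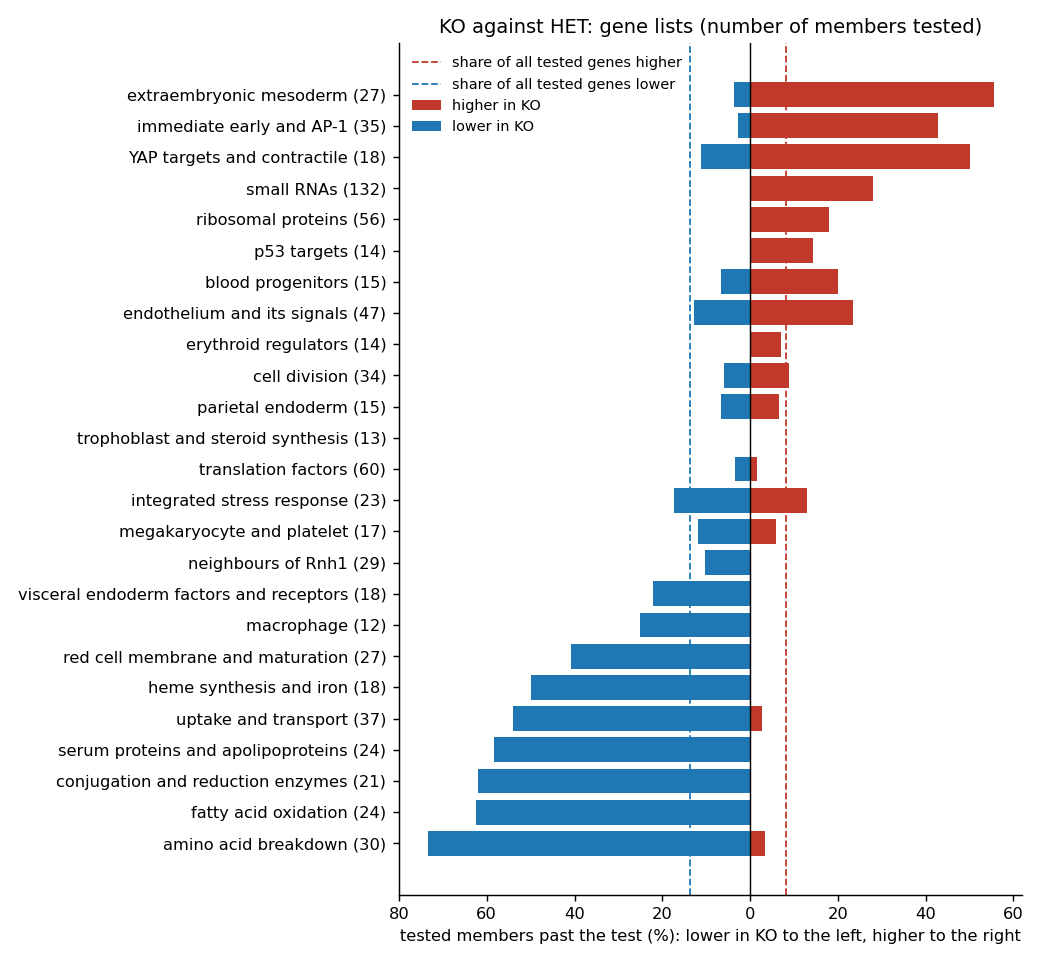
Share of tested members of each gene list that were past the test in KO against HET, lower in KO to the left and higher to the right, in percent, with the number of members tested in brackets and dashed lines at the shares of all tested genes (13.6% lower, 8.17% higher). Lists of metabolic and absorptive genes lie far left, up to 73.3% for amino acid breakdown, and the mesoderm, immediate early and YAP lists far right, at 55.6%, 42.9% and 50%. The lists were chosen with earlier results of these data known, so their shares are no independent evidence.

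The widest fall was in amino acid breakdown, a pathway the visceral endoderm shares with liver. Of 30 tested members 22 fell and 1 rose, with a median of -0.39. The lead gene was Hgd, which opens the ring of homogentisate in tyrosine breakdown. It stood at 9.99, 9.53 and 9.44 on the HET arrays against 7.35, 7.90 and 7.50 in KO. No KO array came within a log2 unit of the lowest HET array, and the gene fell by 2.07 (SE 0.19, adjusted p = 0.000747), or 4.20-fold. Fah, the last enzyme of the same pathway, fell by 1.03 (adjusted p = 0.00119). Kynu, which cleaves kynurenine in tryptophan breakdown, went from 10.36, 10.18 and 10.19 to 8.94, 8.99 and 8.77, and fell by 1.34 (SE 0.11, adjusted p = 0.000722). Aass, the entry enzyme of lysine breakdown, fell by 1.00. The single rise was Gatm (0.89, adjusted p = 0.029), an enzyme of creatine synthesis that was named after its values were seen. It lost its call without any 1 HET array (adjusted p from 0.0623 to 0.0857). Without HET 1, 13 members fell, and with the Xist covariate 10.

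Fatty acid oxidation was also lower, with 15 of 24 members down, 0 up and a median of -0.31. Acaa2, the mitochondrial thiolase, held 11.49, 11.40 and 11.40 in HET and 10.65, 10.80 and 10.67 in KO. The HET values were almost level, and the gene fell by 0.72 (SE 0.07, adjusted p = 0.000736). Etfb, a subunit of the flavoprotein that passes electrons from acyl-CoA dehydrogenases to the respiratory chain, fell by 0.51, and the dehydrogenase Acad11 by 0.70. Ppargc1a, the coactivator PGC-1 alpha of mitochondrial genes, fell by 1.31 (SE 0.17, adjusted p = 0.0017), 2.48-fold. Slc27a2, which activates and imports long-chain fatty acids, was among the largest falls of all genes at 1.71 (SE 0.21, adjusted p = 0.00148). With the Xist covariate 8 members fell.

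Enzymes that conjugate or reduce small molecules fell in 13 of 21 cases, with 0 up and a median of -0.49, and all 21 members lay below 0. The alcohol dehydrogenase Adh1, which also oxidises retinol, stood at 9.75, 9.66 and 9.12 on the HET arrays against 7.85, 7.76 and 7.49 in KO. It fell by 1.81 (SE 0.20, adjusted p = 0.000964), and its WT arrays, at 9.06, 9.38 and 8.77, overlapped HET. Fmo1, a flavin monooxygenase, went from 12.33, 12.25 and 12.10 to 10.70, 11.03 and 11.01, and fell by 1.31 (SE 0.12, adjusted p = 0.000722). The epoxide hydrolase Ephx2 fell by 1.18 and the glucuronosyltransferase Ugt2b34 by 0.96. Outside the list, the reductases Akr1c19 (-1.51) and Dhrs9 (-1.39) were among the 15 largest falls. With the Xist covariate 8 members fell.

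Of 37 tested genes of uptake and transport 20 fell and 1 rose, with a median of -0.36. Slc22a2, an organic cation importer, stood at 10.65, 10.73 and 10.58 on the HET arrays against 8.98, 9.22 and 8.77 in KO, and fell by 1.66 (SE 0.14, adjusted p = 0.000722). Its functional partner on the export side, Slc47a1, fell by 1.45 (SE 0.13, adjusted p = 0.000747), from between 8.92 and 9.18 to between 7.53 and 7.59. The iron exporter ferroportin, Slc40a1, went from between 10.96 and 11.11 to between 10.14 and 10.28, and fell by 0.81 (SE 0.08, adjusted p = 0.000929). The lysosomal sialic acid exporter Slc17a5 fell by 0.85. Further importers, named after their values were seen, were the zinc carrier Slc39a4 (-0.75, adjusted p = 0.00131) and the neutral amino acid carrier Slc6a19 (-0.75, adjusted p = 0.0184). Slc6a19 lost its call without HET 1 (0.067), HET 2 (0.0647) or KO 3 (0.0504) and with the Xist covariate (0.119). The 1 rise, Slc46a1, a proton-coupled folate carrier, was small (0.24, adjusted p = 0.0477), and its call survived the omission of KO 2 but of no other array (0.059 to 0.148). Without HET 1 or without HET 2 the falls numbered 13, and with the Xist covariate 10.

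Secreted proteins followed: 14 of 24 tested serum protein and apolipoprotein genes fell, 0 rose and the median was -0.42. Apoa4, an apolipoprotein of absorptive epithelia, held 12.86, 12.83 and 12.79 in HET and 11.97, 12.24 and 12.06 in KO, and fell by 0.74 (SE 0.08, adjusted p = 0.000964). The fibrinogen chain genes Fga and Fgg fell by 1.00 and 1.06, and transferrin, Trf, fell by 0.54 (SE 0.07, adjusted p = 0.0014). Afp, the fetal serum protein, chosen after its values were seen, fell by 0.34 (SE 0.06, adjusted p = 0.00758), a call lost with the Xist covariate (0.0701). Ttr, which encodes the thyroxine carrier transthyretin, stood at -0.17 (SE 0.08, adjusted p = 0.178). With the Xist covariate 6 members of the list fell.

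Transcription factors and surface proteins that define visceral endoderm were listed apart from its products. Of 18 tested members 4 fell, 0 rose and the median was -0.11. Dpp4, a brush border peptidase, went from 10.59, 10.74 and 10.53 to 10.24, 10.06 and 9.93 (log2 -0.54, SE 0.09, adjusted p = 0.00444). Vil1, which bundles actin in microvilli, fell by 0.54, a call lost without HET 1 (0.0514) and with the Xist covariate (0.11). The adhesion molecules Cdh1 (-0.24, adjusted p = 0.0343) and Epcam (-0.37, adjusted p = 0.0413) also passed, and each lost its call without any of HET 1, HET 2, KO 1 or WT 1 (0.0635 to 0.118 and 0.0674 to 0.134), Cdh1 without KO 2 as well (0.0623) and Epcam without KO 3 (0.0978). The number that fell was 1 without HET 1 or with the Xist covariate, and 2 without HET 2, KO 1 or WT 1.

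Genes of the red cell membrane were lower. Of 27 genes of the red cell membrane and maturation 11 fell, 0 rose, and all 27 lay below 0, with a median of -0.48. Rhd, which encodes the Rh blood group protein, stood at 8.14, 8.41 and 8.57 on the HET arrays against 7.50, 6.80 and 6.95 in KO. KO 1 was the nearest of the KO arrays to HET, and the gene fell by 1.29 (SE 0.18, adjusted p = 0.00217). The membrane skeleton genes Epb42 (-0.90, SE 0.18, adjusted p = 0.00884) and Add2 (-0.80, SE 0.15, adjusted p = 0.00697) fell as well, both calls being lost with the Xist covariate (0.103 and 0.0868). Cd36, a fatty acid and thrombospondin receptor of red cells and other cell types, fell by 1.46 (SE 0.24, adjusted p = 0.00423). The list mean was 9.47, 9.50 and 9.79 on the HET arrays and 9.33, 8.88 and 8.94 on the KO arrays, so the genotypes did not overlap, and KO 1 lay nearest to HET. The number that fell moved between 6 (without HET 1 or KO 2) and 19 (without KO 1), was 7 without HET 2 or HET 3, and was 2 with the Xist covariate and 5 with Eif2s3y as covariate.

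Heme synthesis and iron handling showed 9 of 18 genes lower, 0 higher and a median of -0.31. Alas2, the erythroid first enzyme of the pathway, was named after its values were seen. It stood at 10.73, 10.75 and 11.20 on the HET arrays against 10.45, 9.82 and 9.97 in KO, and fell by 0.81 (SE 0.18, adjusted p = 0.0126). Its housekeeping counterpart Alas1 fell by 0.51 (SE 0.07, adjusted p = 0.00203), the heme-binding protein gene Hebp1 by 0.60 and the final enzyme Fech by 0.68. Urod, an enzyme in the middle of the pathway, fell by 0.43 (adjusted p = 0.0119). Once Xist was a covariate, 2 members of the list fell, and Alas2 (0.128), Fech (0.0826) and Urod (0.112) lost their calls. The number that fell was 6 without HET 3 or without KO 2.

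The promoters of Rhd, which had a large fall among the red cell genes, and of Alas2 are shown because both hold the sequence AGATAA, which GATA factors bind. They were chosen for holding it. Windows of 300 bases run from 250 bases before to 50 after the RefSeq start (GRCm38.p6), were searched on both strands, and carry the match in capitals. Alas2 lies at chrX:150547167-150547466 on the + strand, and its match begins 86 bases before the start.
Alas2: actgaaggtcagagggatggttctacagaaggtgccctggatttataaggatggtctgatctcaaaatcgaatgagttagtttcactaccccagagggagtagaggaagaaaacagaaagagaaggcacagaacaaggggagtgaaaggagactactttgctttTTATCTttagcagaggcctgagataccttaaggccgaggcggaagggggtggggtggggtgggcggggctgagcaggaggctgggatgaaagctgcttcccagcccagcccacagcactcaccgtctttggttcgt
Rhd lies at chr4:134864286-134864585 on the + strand, and its match begins 43 bases before the start.
Rhd: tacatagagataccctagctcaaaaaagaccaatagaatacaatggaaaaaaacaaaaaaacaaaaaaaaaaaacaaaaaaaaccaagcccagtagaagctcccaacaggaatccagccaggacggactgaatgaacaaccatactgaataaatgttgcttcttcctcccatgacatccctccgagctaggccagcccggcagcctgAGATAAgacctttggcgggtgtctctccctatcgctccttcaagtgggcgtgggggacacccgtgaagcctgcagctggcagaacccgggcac
The letters occurred in 6 of the 21 red cell membrane genes with a promoter in the table (28.6%) and in 3 of the 11 that fell (27.3%). They occurred in 11.2% of all 32851 promoters and 7.99% of tested genes. Over all genes they were in 9.07% of those that fell and 6.4% of those that rose. The list was made of red cell genes, so these letters are no independent evidence. Among the heme genes 3 of 15 held them, and 1 of the 8 that fell (12.5%), which was Alas2. A match is a description of these letters and says nothing of binding.

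Of 14 erythroid regulators 1 rose, 0 fell and the median was -0.06. Without KO 1, 2 fell and the median was -0.13, and without HET 3 the median was 0.06. The rise was the GATA1 complex bridging factor Ldb1 (0.43, SE 0.08, adjusted p = 0.006), lost with the Xist covariate (0.0549). Klf1, a master regulator of globin and membrane genes, stood at -0.36 (adjusted p = 0.161, or 0.0379 without KO 1). Gata1 (-0.17, adjusted p = 0.647) and Tal1 (-0.07, adjusted p = 0.712) were chosen after their values were seen. None of the 5 tested globins passed (median -0.11): Hbb-y read 13.35, 13.34 and 13.32 on the HET arrays against 13.32, 13.16 and 13.10 in KO, a difference of -0.14 (adjusted p = 0.144, or 0.0224 without KO 1), close to the top of the scale. Hba-x stood at -0.11 and Hbb-bh1 at -0.06.

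Other blood lineages changed in few members. Among 15 progenitor genes 3 rose and 1 fell (median 0.12). Their list mean was 8.438 to 8.511 on the HET arrays and 8.567 to 8.748 on the KO arrays. On the WT arrays it was 8.605 to 8.614, within the KO range. Kit, a receptor gene of blood progenitors, is described below with its WT values. Gata2, a transcription factor of early progenitors, stood at 8.40, 8.78 and 8.58 on the HET arrays against 9.01, 9.66 and 10.36 in KO, a rise of 1.09 (SE 0.28, adjusted p = 0.0233). The KO arrays were spread over more than a log2 unit, and the call was lost without HET 1 (0.0842), HET 2 (0.0517), HET 3 (0.0577) or KO 2 (0.059) and with the Xist covariate (0.191). Meis1 (0.42, adjusted p = 0.0447) and Hlf (-0.21, adjusted p = 0.0414) each lost their calls without any of 8 of the 9 arrays, Meis1 passing without KO 2 and Hlf without KO 3. The number of progenitor genes that rose was 0 without HET 1 and 1 without HET 2 or HET 3. Of 17 megakaryocyte and platelet genes 2 fell, coagulation factor F5 (-0.56, SE 0.07, adjusted p = 0.00173) and the platelet glycoprotein Gp9 (-0.41, adjusted p = 0.0156), and the thrombin receptor gene F2r rose (0.50, adjusted p = 0.00276). Gp9 lost its call without HET 2 (0.062), and 4 fell without KO 1. Of 12 macrophage genes (median -0.07) 3 fell: the mannose receptor Mrc1 (-1.18, SE 0.25, adjusted p = 0.0117), the Fc receptor Fcgr3 (-0.86) and the growth factor receptor Csf1r (-0.35). Without HET 1 or without HET 2 only 1 of them did, since Fcgr3 (0.0616 and 0.0596) and Csf1r (0.0782 and 0.0518) lost their calls, Csf1r also without KO 2 (0.0623) or KO 3 (0.0531). Under the Xist covariate none of the 12 passed.

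Endothelial genes rose in 11 of 47 cases (23.4%, against 8.17% of all genes) and fell in 6 (12.8%, against 13.6%), with a median of 0.17. Falls were thus no more common in this list than among all genes. Gja5 encodes connexin 40, a gap junction protein of arterial endothelium. It stood at 9.0, 8.80 and 8.55 on the HET arrays against 7.32, 7.14 and 6.69 in KO, and fell by 1.73 (SE 0.19, adjusted p = 0.000964). A second arterial connexin, Gja4, fell by 0.84 (SE 0.16, adjusted p = 0.00747), as did the receptors Flt1 (-0.41, adjusted p = 0.00899) and Tek (-0.32, adjusted p = 0.0214), these 3 named after their values were seen. Tek lost its call without HET 2 (0.0775) or KO 2 (0.0636). In the other direction, Edn1, the gene of the vasoconstrictor peptide endothelin-1, read 6.77, 6.97 and 6.70 on the HET arrays against 8.16, 8.31 and 7.98 in KO. It rose by 1.34 (SE 0.10, adjusted p = 0.000687), 2.52-fold, and its KO arrays lay more than a log2 unit above every HET array. The apelin receptor ligands rose too, Apln by 0.95 (SE 0.14, adjusted p = 0.00242) and Apela by 1.47 (SE 0.34, adjusted p = 0.0163), with the receptor Aplnr itself at 0.46 (adjusted p = 0.00493, named after its values were seen). Apela lost its call without HET 1 (0.0642) or HET 3 (0.0523). Egfl7, a secreted endothelial factor, rose by 0.48, while the junction protein gene Pecam1 stood at 0.08 (adjusted p = 0.576). Without HET 3 the rises numbered 7, and with the Xist covariate 4 members rose and 4 fell, with Apela (0.158) and Aplnr (0.0542) among the lost calls.

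Of 27 genes of extraembryonic mesoderm 15 rose and 1 fell, with a median of 0.36. Sox11, a transcription factor of immature mesenchyme and other progenitors, read 7.45, 7.60 and 7.29 on the HET arrays against 9.04, 8.22 and 9.26 in KO, a rise of 1.39 (SE 0.22, adjusted p = 0.00377). KO 2 was the lowest KO array and still lay above all HET arrays. Its relative Sox4 rose by 0.72 (SE 0.08, adjusted p = 0.00119), and the basic helix-loop-helix factors Hand1 and Twist1 by 0.72 (SE 0.10, adjusted p = 0.00183) and 0.64 (SE 0.07, adjusted p = 0.00119). Hand1 is known to be needed for yolk sac vessel formation. Osr1 rose by 1.09 (SE 0.23, adjusted p = 0.0119), lost with the Xist covariate (0.111). The secreted Wnt modulator Sfrp2, named after its values were seen, read 7.04, 7.12 and 7.18 on the HET arrays against 8.17, 7.4 and 8.90 in KO (1.05, adjusted p = 0.0344), and lost its call without any 1 HET array, KO 1 or WT 1 (0.055 to 0.101). The fall, Postn (-0.28, adjusted p = 0.0378), was lost without any of 7 arrays (0.0567 to 0.114). Without HET 1, 9 members rose, and with the Xist covariate 5.

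Immediate early genes and members of the AP-1 family, which cells switch on within minutes of a stimulus, rose in 15 of 35 cases, with 1 fall and a median of 0.31. Jun, the central AP-1 subunit, stood at 8.23, 8.80 and 8.38 on the HET arrays against 9.93, 10.23 and 9.91 in KO. It rose by 1.55 (SE 0.15, adjusted p = 0.000906), 2.93-fold, and the lowest KO array was more than a log2 unit above the highest HET array. Egr1, a zinc finger factor, rose by 1.22 (SE 0.26, adjusted p = 0.0122, or 0.0505 without HET 1), and on WT 1 it stood at 8.14, near the KO range. Ier5 rose by 0.81 (SE 0.10, adjusted p = 0.00121), the serum response factor gene Srf by 0.49 (SE 0.06, adjusted p = 0.00136) and Myc by 0.58 (SE 0.08, adjusted p = 0.0025). The stress-induced gene Gadd45b, outside the list, rose by 1.11 (SE 0.18, adjusted p = 0.00354). The phosphatase gene Dusp1 (0.69), Ier2 (0.78) and the nuclear receptor gene Nr4a1 (0.50) also rose, named after their values were seen, as was the fall, Klf10 (-0.29, adjusted p = 0.0291). Klf10 lost its call without HET 1, HET 2, KO 2, KO 3 or WT 1 (0.0519 to 0.103). Once Xist was a covariate, 9 members rose, and Dusp1 (0.0649) was among the lost calls.

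Targets of the YAP and TAZ coactivators, which act through TEAD factors, were listed together with contractile genes. Of 18 members 9 rose, 2 fell and the median was 0.27. Ccn1, a secreted matrix protein, stood at 8.93, 9.21 and 9.01 on the HET arrays against 10.59, 10.87 and 10.21 in KO, a rise of 1.51 (SE 0.17, adjusted p = 0.000968). Its relative Ccn2, named after its values were seen, rose by 0.93 (SE 0.20, adjusted p = 0.0125), a call lost without HET 1 (0.0521) and with the Xist covariate (0.118). Amotl2, a feedback inhibitor of YAP, went from 8.87, 8.76 and 8.92 to 9.60, 9.56 and 9.43 (0.68, SE 0.07, adjusted p = 0.000964), and the muscle intermediate filament gene Des rose by 0.77. The falls were both smooth muscle contractile genes, the actin Actg2 (-0.61, SE 0.12, adjusted p = 0.00767) and the myosin light chain Myl9 (-0.52, adjusted p = 0.0259, named after its values were seen). Myl9 lost its call without HET 1 (0.0957), HET 2 (0.0799) or KO 3 (0.0627). Without HET 1, 5 members rose, with the Xist covariate 3, and without KO 2 the falls numbered 4.

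Promoters are shown for Ccn1 and Amotl2, the clearest rises of this list, and for Edn1, since all 3 windows hold the TEAD-binding letters GGAATG, read here on the opposite strand and in capitals. Ccn1 lies at chr3:145649936-145650235 on the - strand, with the match beginning 103 bases before the start.
Ccn1: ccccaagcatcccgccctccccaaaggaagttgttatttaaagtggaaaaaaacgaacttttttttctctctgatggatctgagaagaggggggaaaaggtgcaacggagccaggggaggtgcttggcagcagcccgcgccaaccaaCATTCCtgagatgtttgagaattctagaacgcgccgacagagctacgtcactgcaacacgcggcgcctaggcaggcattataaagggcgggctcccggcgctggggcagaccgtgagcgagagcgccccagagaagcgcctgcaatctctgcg
Amotl2 lies at chr9:102717554-102717853 on the + strand, with the match beginning 65 bases before the start.
Amotl2: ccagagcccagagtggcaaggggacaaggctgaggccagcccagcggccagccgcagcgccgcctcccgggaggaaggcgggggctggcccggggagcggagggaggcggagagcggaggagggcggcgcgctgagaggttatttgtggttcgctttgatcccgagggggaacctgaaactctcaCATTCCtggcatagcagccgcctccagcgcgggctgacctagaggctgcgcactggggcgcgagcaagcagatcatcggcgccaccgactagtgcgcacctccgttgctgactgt
Edn1 lies at chr13:42301226-42301525 on the + strand, with the match beginning 207 bases before the start.
Edn1: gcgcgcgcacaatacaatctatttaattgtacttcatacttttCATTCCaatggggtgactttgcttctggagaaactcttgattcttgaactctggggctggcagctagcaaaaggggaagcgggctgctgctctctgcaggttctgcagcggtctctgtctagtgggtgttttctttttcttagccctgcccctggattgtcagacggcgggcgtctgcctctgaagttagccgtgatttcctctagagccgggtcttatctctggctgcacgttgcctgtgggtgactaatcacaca
Among list members with a known promoter, 11 of 14 held GGAATG (78.6%), against 14.7% of all promoters and 14.5% of tested genes. Of the 8 that also rose or fell, 6 held the letters. The list was made of known YAP targets and contractile genes, so these letters are no independent evidence. Over all genes the letters were about as common in those that rose (17.7%) as in those that fell (16.8%). The AP-1 letters TGANTCA were found in 1 of 26 immediate early genes with a promoter in the table and in 4.15% of the genes that rose, against 6.13% of tested genes. The cyclic AMP response element TGACGTCA was found in 3 of the 26 (11.5%, against 3.43%). Over all genes it was in 4.5% of those that rose and 2.86% of those that fell. The list was made of immediate early and AP-1 genes, so this share is no independent evidence either.

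Small RNAs, captured here as probe sets on their genes or precursors, rose in 37 of 132 tested cases, with 0 falls and a median of 0.14. The others of the 363 on the array were too dim to test. By type, 23 of 40 small nucleolar RNAs (Snora and Snord, which guide pseudouridylation and methylation of ribosomal RNA) and both tested Cajal body RNAs rose, against 9 of 84 microRNA symbols. Those 9 were 8 microRNA genes and the host gene Mir17hg, a share not far from the 8.17% of all genes that rose. Rnu3a, the U3 RNA of early ribosomal RNA processing, had the largest rise. It read 8.51, 7.99 and 8.19 on the HET arrays against 10.22, 10.16 and 9.66 in KO, a rise of 1.79 (SE 0.17, adjusted p = 0.000747), 3.45-fold. The vault RNA Vaultrc5, part of a large cytoplasmic particle, went from 7.07, 7.11 and 7.06 to 8.51, 8.73 and 8.40 (1.47, SE 0.14, adjusted p = 0.000747). For neither gene did the genotypes overlap. Snora62 rose by 0.86 (SE 0.09, adjusted p = 0.000964), and, named after their values were seen, Snord104 by 1.39 (adjusted p = 0.00344) and Snora33 by 1.24 (adjusted p = 0.00151). Of the 132, 124 were bright enough on WT and HET arrays alone, and 34 of these rose; the 8 others were tested through their KO arrays. The number that rose was 26 to 36 with 1 array left out, lowest without HET 1, and 22 with the Xist covariate.

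Among microRNA genes Mir505, which lies on the X chromosome, had the smallest p. It stood at 6.14, 6.05 and 6.32 on the HET arrays against 6.99, 7.08 and 7.05 in KO, a rise of 0.87 (SE 0.07, limma adjusted p = 0.000722) between values near the dim end of the array. All 3 HET values lay below the level required for testing on their arrays (6.46 to 6.57), and all 3 KO values lay above it. The KO arrays alone thus sufficed for Mir505 to be tested, and its p-value is to be read with that limit. Sex-linked transcripts were not balanced between the genotypes, and beyond the covariate fits the part of sex in this X-linked gene was not tested. Mir7-1, named after its values were seen, rose from 7.32, 7.33 and 6.96 to 7.97, 7.94 and 7.74 (0.68, SE 0.14, adjusted p = 0.0109), a call lost with the Xist covariate (0.0858). Both products of Mir505 and the 5p product of Mir7-1 are given from RefSeq (GRCm38.p6), with the seed, bases 2 to 8, in capitals, since the seed sets which transcripts a microRNA pairs with.
mmu-miR-505-3p: cGUCAACAcuugcugguuuucu
mmu-miR-505-5p: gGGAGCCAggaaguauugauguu
mmu-miR-7a-5p: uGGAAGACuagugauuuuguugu
The array does not separate the arms or the mature from the precursor form. No seed was shared among the 13 mature sequences of the 7 genes that rose and were in the table. Of these genes, Mir337, Mir341, Mir665 and Mir673 (0.31, 0.47, 0.72 and 0.40, named after their values were seen) lie on chromosome 12 in the imprinted Dlk1 to Dio3 domain. In a window around them 21 microRNA genes were tested, of which 4 rose, 0 fell and 12 lay above 0, with a median of 0.04. Mir665 read 8.20, 7.62 and 7.22 on the KO arrays, and lost its call without any 1 HET array, KO 1, KO 2 or WT 1 (0.0502 to 0.109). Mir341 lost its call without HET 2 or KO 2, Mir673 without any of 4 arrays and Mir337 without any of 7 (0.0505 to 0.127 in all).

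Ribosomal protein genes rose in 10 of 56 cases with 0 falls. The median was 0.09, or 0.06 with arrays centred on their medians, and 48 of 56 lay above 0. Rpl12 went from 8.09, 8.12 and 7.97 to 8.78, 8.75 and 8.46 (0.60, SE 0.11, adjusted p = 0.00561), while Rps28 (0.33), Rps14 (0.34) and Rpl37a (0.25) moved less. Under the Xist covariate 3 rose, and Rpl12 (0.0704) and Rps28 (0.0632) lost their calls. Of 60 translation factor genes 1 rose and 2 fell (1.67% and 3.33%), and without KO 1 the falls numbered 6. Of the ribonuclease A family, the targets of RNH1, only Ang6 of 15 members on the array was bright enough to test, and it stood at -0.20 (adjusted p = 0.113). Of 23 genes of the integrated stress response 3 rose, among them the transcription factor gene Ddit3 (0.45, SE 0.06, adjusted p = 0.00237), and 4 fell, among them the serine synthesis genes Phgdh (-0.55, adjusted p = 0.00395) and Psat1 (-0.37, adjusted p = 0.00449) and the kinase gene Eif2ak3 (-0.57, adjusted p = 0.00825). The list median was 0.09. Without HET 1 or HET 2, 1 of the list rose, and without KO 1 or KO 3, 5 rose, and with the Xist covariate 1 rose and none fell. Of 14 p53 targets 2 rose, Plk2 (0.98, SE 0.12, adjusted p = 0.00135) and Phlda3 (0.41, adjusted p = 0.0262), the latter lost without HET 1, HET 2, HET 3, KO 1 or KO 2 (0.0624 to 0.0803). Of 34 cell division genes 3 rose and 2 fell. The falls numbered 0 without HET 1 or HET 2, 1 without HET 3, KO 2 or WT 1 and 4 without KO 3, and 1 rose without HET 2 or KO 2. Of 29 neighbours of Rnh1 3 fell: Sigirr (-0.57), Gatd1 (-0.37) and Ap2a2 (-0.25), calls that were lost with the Xist covariate (0.0985, 0.0701 and 0.117), and 5 fell without HET 3 or KO 1.

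Markers of other tissues were checked on the same arrays. The largest rise among the named genes was Prl8a2, a prolactin family gene of the maternal decidua, at 6.50, 9.75 and 7.18 on the HET arrays against 10.40, 9.76 and 11.34 in KO. HET 2 and KO 2 were level, and in WT it stood at 9.40, 8.90 and 10.72, so HET 1 and HET 3 were the low arrays. The difference of 2.69 (SE 0.81, adjusted p = 0.0431) lost its call without any 1 array other than HET 2, WT 2 or WT 3 (0.059 to 0.144) and with the Xist covariate (0.392). The other called member of the 7 decidual genes, Igfbp1, which is also a liver-type secreted protein, fell by 1.34 (SE 0.20, adjusted p = 0.00285). The decidua list mean was 8.12 to 8.70 in HET and 8.47 to 8.79 in KO. None of 13 trophoblast genes passed, though 11 lay above 0 and the median was 0.60. Their list mean was 6.90, 7.59 and 8.22 in HET and 7.82, 8.18 and 8.19 in KO, so the genotypes overlapped. Among them Ascl2 read 6.48, 7.84 and 8.91 in KO (0.92, adjusted p = 0.226, or 0.0122 without KO 1). Without KO 1, 2 members rose, without HET 1 or HET 3 1 rose, and without KO 2 or WT 3 1 fell. Of 15 parietal endoderm genes 1 rose and 1 fell, Hspg2 (0.49) and Nid2 (-0.34, lost without HET 1, HET 2, KO 2 or KO 3 at 0.0569 to 0.0787). Of 6 embryo genes the atrial myosin gene Myl7 rose (0.81, adjusted p = 0.0123). Hspg2 (0.0917), Nid2 (0.117) and Myl7 (0.0975) lost their calls with the Xist covariate, and none of 4 genes of adult maternal blood passed. The part of these tissues in the results above was not tested.

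**Figure D3:**
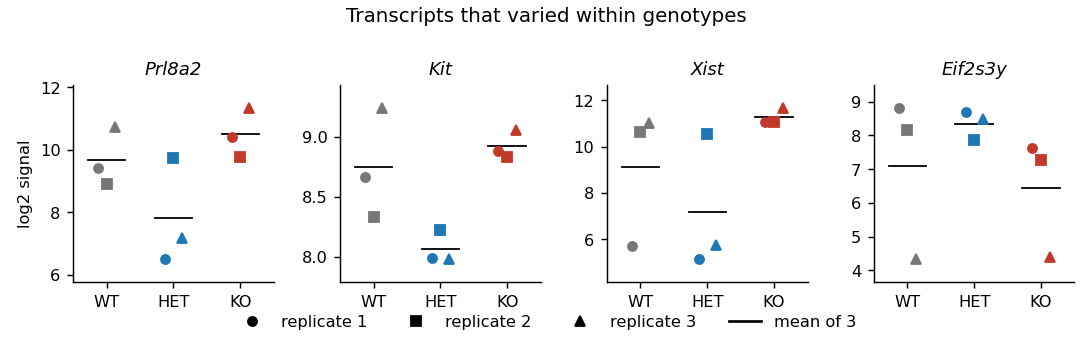
Log2 signal on each array of Prl8a2, Kit, Xist and Eif2s3y, with symbols for replicates 1 to 3 and a line at the mean of each genotype (each panel has its own vertical scale). Prl8a2 and Xist are low on HET 1 and HET 3 and high on all KO arrays, Eif2s3y is low on WT 3 and KO 3, and Kit is lower on all HET arrays than on all WT and KO arrays.

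Whether any change belonged to loss of the last copy and not to absence of Rnh1 in general was read from the HET and WT arrays. KO against WT shares its KO arrays with KO against HET, so agreement between them is not independent. It called 3101 genes (23.5%), and 491 of the 2875 genes called against HET were not called against WT (262 higher and 229 lower in KO). All 491 had the same direction in both comparisons, and 339 had an unadjusted p under 0.05 against WT, where their median size was 0.2, against 0.308. For a gene to be particular to KO against HET, HET itself must differ from WT. In that comparison 0 of 13207 genes passed by limma (327 at an unadjusted p under 0.05, 2.48%, smallest adjusted p 0.627), and among the 491 the smallest adjusted p was 0.939. No gene was therefore shown to be specific to this contrast. Rnh1 itself, whose HET arrays all lay below its WT arrays, did not pass HET against WT by limma either (adjusted p = 0.939). The 0 calls therefore do not show that HET equals WT. Of the 491, 14 were called against HET and not against WT with every 1 array left out in turn. Counted anew in each such fit, genes of this kind numbered 160 without HET 1, 134 without HET 2, 272 without HET 3 and 1209 without WT 2. HET against WT called 5 genes without WT 2 and 1 without KO 1.

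The genes named next are those of the 491 with the smallest unadjusted p in HET against WT. This choice itself picks genes where HET stands apart from both other genotypes, so that form is no separate result. None of the 491 passed limma's test of HET against WT (smallest adjusted p 0.939). Kit, the stem cell factor receptor of blood and germ cell progenitors, read 8.66, 8.33 and 9.24 for WT, 7.99, 8.22 and 7.98 for HET and 8.88, 8.83 and 9.06 for KO. All HET arrays were the low ones, by 0.86 against KO (SE 0.19, adjusted p = 0.0144, or 0.056 without HET 1) and by 0.68 against WT (adjusted p = 0.939). Msl2, a ubiquitin ligase subunit of a histone acetyltransferase complex, read 11.17, 11.15 and 11.13 for WT, 10.93, 10.95 and 10.95 for HET and 11.30, 11.18 and 11.30 for KO (0.32 against HET, adjusted p = 0.00496). Rnf19b, Rel, Oaf, Tfpt and Mettl18 had the same form, at 0.43, 0.37, 0.26, 0.27 and 0.33 above HET. Of these, Rnf19b kept its call with any 1 array left out, while the other 4 lost theirs without at least 3 of the arrays in turn. Myo9a stood at 0.43 (adjusted p = 0.00839) on 1 of its 13 probe sets and at 0.12 (adjusted p = 0.506) on their mean. Efhc2 (-0.67, adjusted p = 0.0194, lost without HET 1, HET 2 or KO 3 at 0.051 to 0.0713) and Adhfe1 (-0.90, adjusted p = 0.0041), a mitochondrial hydroxyacid oxidoreductase, were instead highest in HET. Once Xist was a covariate, the calls of Kit, Msl2, Myo9a, Tfpt, Rnf19b, Rel, Oaf and Mettl18 were lost (0.0527 to 0.188).

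The size of both steps was compared directly, as KO minus HET against HET minus WT. In 200 genes (1.51%) the steps differed, and all 200 were also called in KO against HET, 147 with the more negative second step and 53 with the more positive. Without regard to sign, the median size of their first step was 0.0892 and that of their second step 0.735. Rnh1 was one of them (-0.62, then -3.11, adjusted p = 0.00701). Acss1, a mitochondrial acetyl-CoA synthetase, had the smallest p. It read 10.52, 10.54 and 10.47 for WT, 10.52, 10.55 and 10.58 for HET and 9.37, 9.33 and 9.22 for KO, so the first step was 0.04 and the second -1.24 (SE 0.06, adjusted p of the difference 0.00538). Maob, a monoamine oxidase, moved by 0.01 and then by -1.27 (0.025). Creg1, a secreted glycoprotein of lysosomes, moved by 0.14 and then by -0.91 (0.00701), and Lypd8 (0.32, then -1.29), Renbp (0.25, then -1.04) and the mitochondrial protein gene Chchd10 (0.12, then -0.67) had the same form. Jun had steps of -0.14 and 1.55 (0.0357). In 181 of the 200 the HET mean lay beyond the WT mean on the side away from KO. HET enters both steps with opposite sign, so this form is favoured by the comparison itself. The count was not stable: leaving out HET 1 or HET 2 gave 0, HET 3 gave 32, KO 3 gave 20, WT 1 gave 1, WT 2 gave 302 and WT 3 gave 4, and the Xist covariate gave 0.

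**Figure D4:**
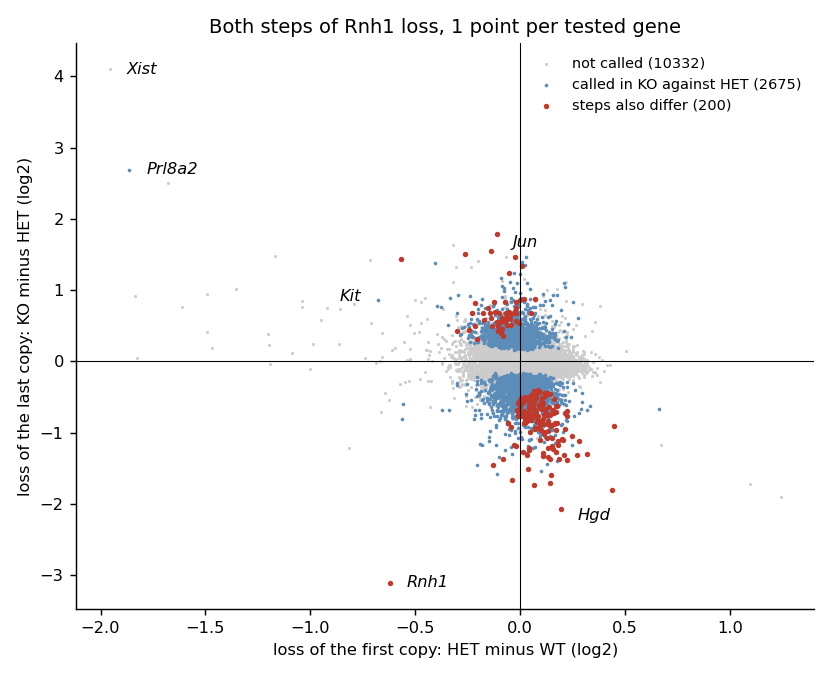
Difference from WT to HET (horizontal, log2) against difference from HET to KO (vertical, log2), 1 point per tested gene: grey for genes not called in KO against HET, blue for called genes and red for the 200 whose steps differed. Called genes spread along the vertical axis around a first step of 0, and Rnh1 lies alone at the lower left with -0.62 and -3.11.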

How the data were processed

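The authors deposited log2 signals per probe set, and the submitters' processing notes name RMA and Affymetrix Expression Console (version 1.2.1.20). Each sample's label took 100 ng of RNA, per its protocol. No source used here gives further settings. Probe sets naming 1 symbol were used, the brightest of the 9-array means for genes with several (996 genes). A gene was tested if above the 40th percentile of its array (6.35 to 6.57) on at least 3 of 9 arrays. All 9 arrays entered 1 limma 3.58.1 fit (R 4.3.3) with genotype as the factor, and p-values were adjusted by Benjamini-Hochberg over the 13207 genes. The fit was tested on simulated data. Named genes were Rnh1, the 15 largest rises and falls, up to 4 per list by p, and 10 each for the steps and for calls absent against WT, while predicted genes and most small RNA symbols were passed over. The gene lists, the comparison and the rule were chosen with earlier results of these data known. Alternatives were other filters, probe set averaging, centring, quantile normalization, prior, array weights, 2 genotypes only, replicate block, Xist or Eif2s3y as covariate and each array left out. Promoter and microRNA sequences came from RefSeq tables (GRCm38.p6), matched by symbol for 10532 tested genes.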

Additional observations from a re-analysis of the deposited data

How the results depend on the processing

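Genes higher in KO than in HET (1079) numbered 710 with Eif2s3y and 242 with Xist as covariate, 698 with arrays centred on their medians and 627 with only the KO and HET arrays, and 538 to 1115 with 1 array left out. Genes lower (1796) numbered 1029 with Eif2s3y and 601 with Xist, and 941 to 2034 with 1 array left out. Genes called against HET and not against WT (491) numbered 157 with Eif2s3y, 32 with Xist and 305 with array weights, and 134 to 1209 with 1 array left out. HET against WT called 6 genes with array weights, and 0 to 5 with 1 array left out. The genes whose steps differed (200) numbered 2 with Eif2s3y, 0 with Xist, 2113 with array weights, 23 with centring, 305 with the filter at the array median, 15 with no filter, 532 with quantile normalization, 344 with the replicate block and 475 with a trended and robust prior, and 0 to 302 with 1 array left out. The array weights did not converge (WT 1 took a weight of 47.4). Deviations of same-numbered arrays correlated at r from -0.257 to 0.425. All 3 pairs numbered 3 were positive (0.178, 0.361 and 0.425), but not every pair passed 0.1, so the numbers were not taken as pairs, and the replicate block gave 1055 higher and 1798 lower. Of 187 other named genes, 26 lost their call with Eif2s3y and 64 with Xist as covariate, and no called gene changed direction. The cause of these shifts was not tested. With 3 arrays per genotype, small differences were not detectable, and genes too dim on the array were not tested.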
